A study of Homo sapiens with 24 samples.

Results

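To describe m6A on the transcripts of the cytoplasmic ribosomal proteins, the peaks of 6 deposited lists were searched for those assigned to a protein-coding gene with an RPL or RPS symbol, or to RPSA, RPLP0, RPLP1 or RPLP2, with the RPS6K kinases left out. The rule gave 86 of 19689 protein-coding genes, 52 for the large and 34 for the small subunit, and 471 of 228472 peaks. Of the 86 genes, 77 encode the standard ribosome and 9 are paralogues such as RPL7L1, RPL22L1, RPL39L and RPS27L. The pair of Y-linked paralogues was counted, and no values of their own are given.

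In m6A-seq, RNA is fragmented and the pieces bearing N6-methyladenosine are enriched by an antibody (IP) and sequenced beside the unselected pieces (input). The 24 libraries came from the human embryonic stem cell line MEL1, by the study's methods the INSGFP/W derivative with GFP under the endogenous insulin promoter, and formed 12 groups of 2, with separate IP and input groups in 6 populations. Batch 1 profiled mRNA with a SYSY antibody from undifferentiated cells (hPSC, kept on feeder cells), from the definitive endoderm made of them (DE), from pancreatic progenitors (PP) and from organoids resembling human islets (hILO). Wild-type progenitors (WT PP) and progenitors from a homozygous ALKBH5 knockout line (A5-KO PP, made with CRISPR-Cpf1) were profiled in batch 2 from total RNA, with a Millipore antibody, a different library kit and rRNA removed from the input fragments. Batch, RNA type and antibody cannot be told apart between PP and WT PP. No treatment other than the differentiation media separates the populations.

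Each population had 1 list of peaks called on its 4 libraries together. Where 6 values are given without their lists, they run from hPSC through DE, PP and hILO to WT PP and then A5-KO PP. Values of single libraries were not analysed here. No difference below therefore has a replicate check, and intervals cover counting error only. Of the markers of each stage, 3 of 4 had a peak in hPSC (DNMT3B had none), 4 of 4 in DE, and 5 of 5 in both PP and hILO. These peaks separate the lists only in part: POU5F1 and NANOG also had peaks in DE, DNMT3B had one in PP, all 5 PP markers had one in hILO, and LIN28B, CXCR4 and CHGA had one in every list.

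Ribosomal proteins assemble with ribosomal RNA into the small and the large ribosomal subunit, and their mRNAs are short, very abundant and translated as a coordinated group. m6A is written on mRNA by the METTL3-METTL14 complex at sites of the form DRACH, in which the methylated A follows a purine (R) and precedes C, is best known from long internal exons and the surroundings of stop codons, and is erased by ALKBH5 and FTO. Splicing variants of ribosomal protein genes are common, and many introns of these genes host small nucleolar RNAs.

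The peaks that recurred in 5 or 6 lists were taken as the most repeatable sites of the family. Of 26 such loci on exons of ribosomal protein genes outside chromosomes 8 and Y, 18 had a DRACH site in the stretch common to all their lists with its flanks in an exon, and in 10 the chosen site was of the GGAC type. Of these, 9 are printed 5′ to 3′ on the transcript strand of GRCh38 with 10 bases on each side, because they show what the recurrent peaks cover, and the capitals mark the DRACH bases. A GGAC site was taken where there was one, and the site nearest to the middle of the common stretch among several, so the letters GGAC are a choice and not a result.
RPL7L1 3′UTR, chr6:42886634-42886658, plus strand, 6 lists: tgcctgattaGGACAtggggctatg
RPL7L1 3′UTR, chr6:42887812-42887836, plus strand, 6 lists: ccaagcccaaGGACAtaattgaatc
RPL31 3′UTR, chr2:101007210-101007234, plus strand, 6 lists: taaaagaaaaGGACCaagtaaatac
RPL37 3′UTR, chr5:40827707-40827731, minus strand, 6 lists: gataaaggaaGGACTtaagcaaaat
RPL37 3′UTR, chr5:40825641-40825665, minus strand, 5 lists: agggtgaacaGGACTaaggcaatgt
RPL37A exon of an alternative coding isoform, chr2:216529330-216529354, plus strand, 6 lists: caaggaacggGGACTgaaataacag
RPS29 exon of an alternative coding isoform, chr14:49577288-49577312, minus strand, 6 lists: cctggcttttGGACAgttgttcgtg
RPL13 3′UTR, chr16:89563290-89563314, plus strand, 5 lists: acttcagagtGGACTtgtgtttttt
RPL13A 3′UTR, chr19:49491874-49491898, plus strand, 5 lists: ggaatgtacgGGACCcaggggcagc
None of the 9 lies in the main coding sequence of its gene. A DRACH match is a description of the letters under a peak and not a measured site. Over all member peaks, DRACH was present in the exonic part of 84.2%, 87.3%, 78.2%, 94.2%, 84.8% and 91.5% of peaks in the 6 lists, beside 89.0% to 92.9% of all peaks of the lists. GGAC was present in 48.1% to 57.6% of the member peaks and 51.3% to 57.7% of all peaks.

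In every list but hILO the share of ribosomal protein genes with a peak was below that of all protein-coding genes, though the interval of hPSC included it. In hPSC 46 of 86 had at least 1 peak (53.5%, Wilson 95% interval 43.0% to 63.7%), beside 60.0% of all protein-coding genes. The DE list had 36 (41.9%, beside 56.9%), the PP list 34 (39.5%, beside 52.0%) and the hILO list 50 (58.1%, beside 57.5%). For WT PP the count was 35 (40.7%, beside 62.7%), and for A5-KO PP it was 32 (37.2%, beside 69.6%). The hILO share was thus near the background, and the shares in DE, WT PP and A5-KO PP had Wilson intervals below it, as had PP (29.9% to 50.1%). The lists hold rows above the p-value that the study's methods state for peaks (1e-05), and without them 37, 32, 20, 49, 28 and 24 members had a peak in the 6 lists. These were 43.0%, 37.2%, 23.3%, 57.0%, 32.6% and 27.9%, beside 49.8%, 47.0%, 42.4%, 56.1%, 51.0% and 56.2% of all protein-coding genes under the same rule, and the interval of DE (27.7% to 47.8%) then included the background. The denominators include genes that the cells may not express, whereas ribosomal protein genes are expressed in nearly every cell.

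Related families were counted in the same way. Peaks were found on 73.1% to 87.2% of 78 mitochondrial ribosomal protein genes, which serve the separate ribosome of mitochondria, and on 67.5% to 80.5% of 77 translation factor genes. Their mRNAs were longer, with medians of 1334.5 and 2556 nt. Nuclear genes of the respiratory chain, with mRNAs of a median 995 nt close to the 880.5 nt of the ribosomal proteins, had peaks on 51.4% to 65.8% of 111 genes. In each list the Wilson intervals of the ribosomal and the mitochondrial ribosomal proteins did not overlap, whereas those of the ribosomal proteins and the respiratory chain did, except in PP. Among mRNAs under 1000 nt, 49 ribosomal protein genes had a peak in 38.8%, 32.7%, 32.7%, 51.0%, 32.7% and 30.6% of cases in the 6 lists and the 2008 other coding genes in 33.7%, 31.2%, 26.2%, 32.7%, 32.2% and 35.2%. At this length the widest gap was in hILO (51.0% beside 32.7%). The shares of DE and WT PP were close to those of the other genes. Those of hPSC and PP were somewhat higher and that of A5-KO PP somewhat lower. No intervals were computed at this length, and with 49 genes the smaller gaps are not read as differences.

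**Figure D1:**
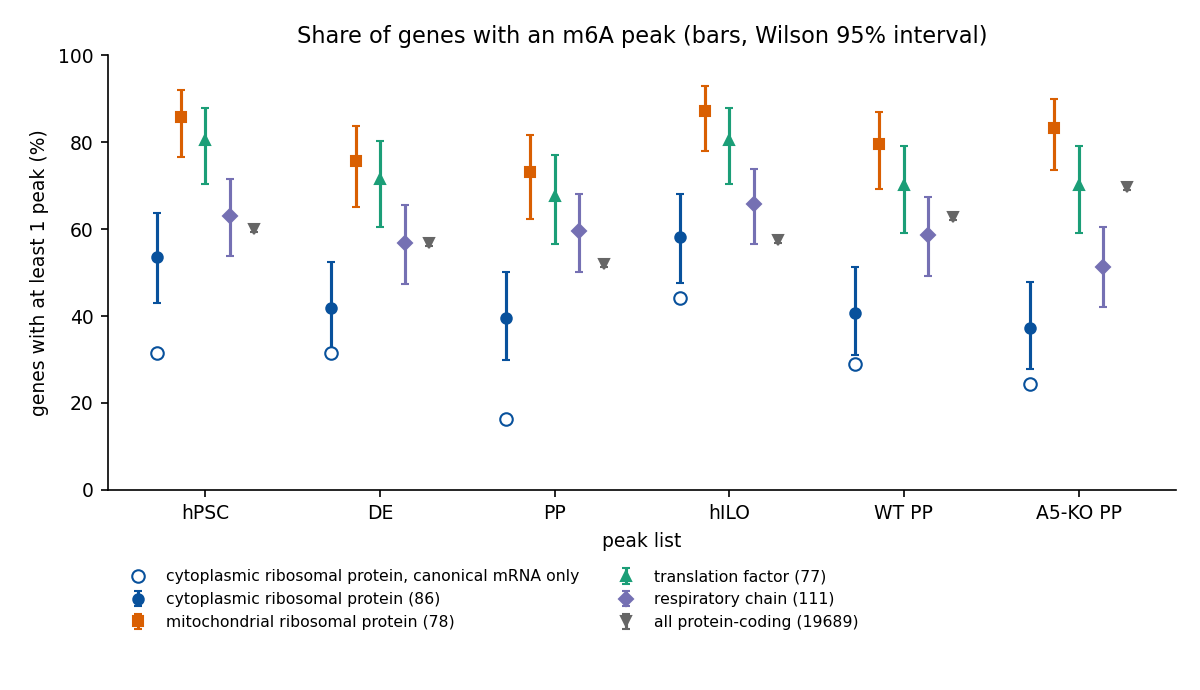
Share of genes with at least 1 m6A peak (percent, vertical axis) in the 6 lists for the ribosomal proteins and 4 comparison sets, with Wilson 95% intervals as bars and the number of genes in the legend. The filled circles of the ribosomal proteins lie at 37.2% to 58.1% and below the mitochondrial ribosomal proteins in every list, and the open circles, which count canonical mRNA peaks only, lie lower still at 16.3% to 44.2%.

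Many of the peaks lay outside the main transcript. Each peak was reduced to the exons of its genes and compared with the canonical mRNA, the transcript tagged as Ensembl canonical in GENCODE. Of 471 peaks, 245 (52.0%) lay mostly on the canonical mRNA of the ribosomal protein gene, 174 (36.9%) on another exon of it and 52 on an exon of a neighbouring gene named in the same assignment. For all protein-coding genes, 80.2% to 84.8% of the peaks lay on a canonical mRNA. Several genes were named in 205 of the 471 assignments (43.5%), against 17.0% of all peaks. A small nucleolar RNA was among the names in 72, from 16 host genes, but only 4 peaks (RPL17, RPL4, RPL7A) touched the sequence of one.

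Counted by the canonical mRNA alone, 27, 27, 14, 38, 25 and 21 members had a peak in the 6 lists (31.4%, 31.4%, 16.3%, 44.2%, 29.1% and 24.4%). The corresponding shares of all protein-coding genes were 53.2%, 50.1%, 44.8%, 50.8%, 56.3% and 61.9%. The Wilson intervals of the ribosomal protein share were below the background in 5 lists, and that of hILO (34.2% to 54.7%) included it. PP was lowest (10.0% to 25.5%) and hILO highest.

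Of the 84 members outside the Y chromosome, 22 had a peak in all 6 lists, 4 in 5 lists, 15 in 1 list and 20 in none. These were 26.2%, 4.76%, 17.9% and 23.8% of the members, beside 37.5%, 10.7%, 10.6% and 18.2% of all protein-coding genes. Of the 22, 9 had it on the canonical mRNA in each list: RPL4, RPL13A, RPL14, RPL27A, RPL31, RPL37 and the paralogue RPL7L1 of the large subunit, and RPS4X and RPS14 of the small subunit. RPL4 lines the tunnel through which the new protein leaves the ribosome, RPL13A is also known from translational silencing in interferon-treated cells, and RPS14 is the gene lost in a form of myelodysplastic syndrome. Another 9 had peaks on their own exons in all 6 lists but not always on the canonical mRNA, namely RPL7, RPL22, RPL28, RPL30, RPL37A, RPS6, RPS24, RPS27L and RPS29. The last 4 of the 22, RPL17, RPL26, RPL36 and RPL36A, reached all 6 lists only with peaks on a neighbour's exons. Of the 4 members in 5 lists, RPL13, RPL41 and RPL5 had canonical mRNA peaks in each of them, and RPL6 in 4.

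The genes without a peak included all 3 proteins of the ribosomal stalk, RPLP0, RPLP1 and RPLP2, which recruit translation factors. Others were RPL10A, RPL10L, RPL12, RPL22L1, RPL23A, RPL27, RPL32, RPL35A and RPL39 of the large subunit, and RPS3A, RPS7, RPS12, RPS13, RPS18 and RPS26 of the small subunit. RPL10L and RPL22L1 are paralogues, and RPL10L is known mainly from testis. Among further members, RPL3, which lies at the peptidyl transferase centre, had 1 peak each in hPSC and WT PP, and RPL10, a late-joining subunit protein, had 1 each in hPSC and DE, none of them on the canonical mRNA. RPS19, mutated in Diamond-Blackfan anaemia, had a canonical mRNA peak in hPSC, DE and hILO. RPS27A, which encodes ubiquitin fused to the ribosomal protein, had a 3′UTR peak in hILO and in A5-KO PP. RPS27, the partner of RPS27L, had a peak in DE and hILO, and RPL39L, the paralogue of RPL39, had peaks in hPSC, DE and A5-KO PP. RPSA, also known as the laminin receptor, had 1 peak in hPSC, off the canonical mRNA. Absence from a list shows that no peak passed the caller and not that the transcript lacked m6A.

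On the canonical mRNA the ribosomal protein peaks were mainly in the 3′UTR. By the position of the peak midpoint, 188 of 245 (76.7%) were in the 3′UTR, 53 (21.6%) in the CDS and 4 (1.63%) in the 5′UTR, whereas 37.1% to 44.6% of all canonical mRNA peaks were in the 3′UTR. The 3′UTR makes up 58.9% of the summed canonical mRNA length of the members and the CDS 36.7%. Of the 188 peaks, 122 (64.9%) were more than 200 nt past the stop codon and 69 (36.7%) more than 1000 nt past it, with a median distance of 441 nt. Those 69 came from 6 genes, RPL7L1, RPL14, RPL27A, RPL28, RPL37 and RPS23. Together RPL4, RPL7L1, RPL14, RPL27A, RPL28 and RPL37 held 110 (44.9%) of the canonical mRNA peaks.

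**Figure D2:**
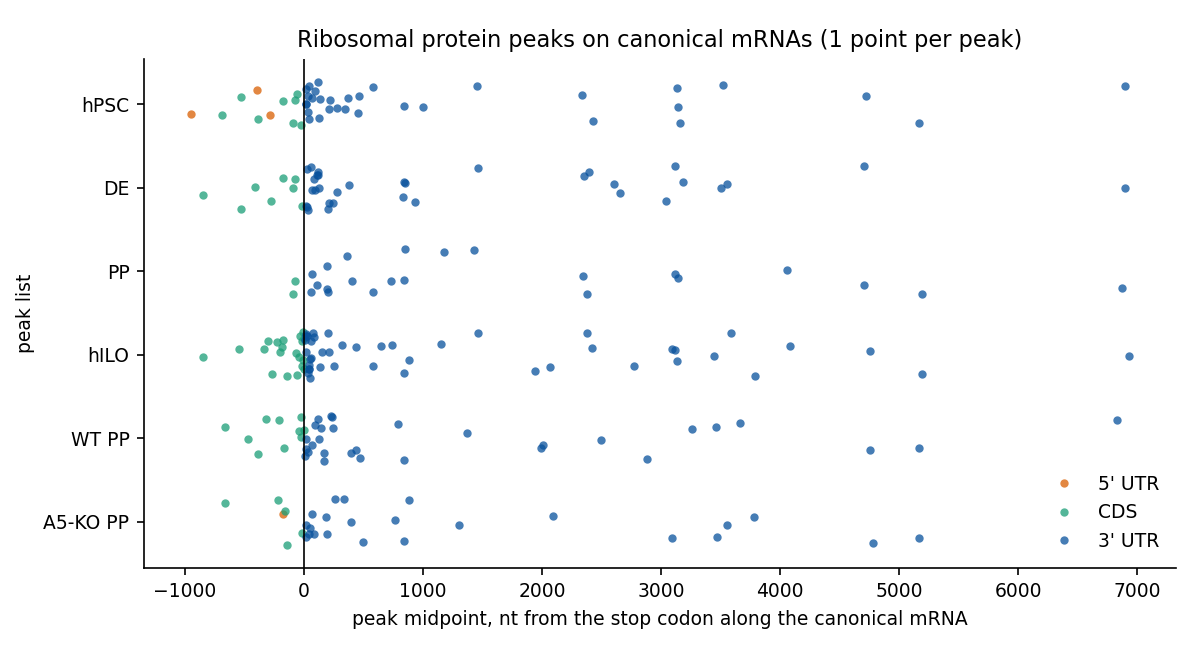
Position of the 241 canonical mRNA peaks outside the Y chromosome, as the distance of the peak midpoint from the stop codon in nt (horizontal axis, linear), with 1 row of points per list. Points right of the line are in the 3′UTR. The points past 1000 nt recur at like positions in several lists, and the hILO row has the most points near the line.

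The length of the annotated 3′UTR went with the presence of peaks, as it did over all protein-coding genes. Of 29 members with a canonical 3′UTR of 500 nt or more, 22 (75.9%) had a canonical mRNA peak in some list and 10 had one in 5 or 6 lists, and these 29 genes held 168 of the peaks. Of 55 members with a shorter 3′UTR, 26 (47.3%) had one and 4 had one in 5 or 6 lists, and they held 73 peaks. Of all protein-coding genes, 85.9% with a 3′UTR of 500 nt or more and 56.3% with a shorter one had such a peak in some list. The 7 long-3′UTR members without a canonical mRNA peak were RPL10, RPL22L1, RPL32, RPL35A, RPLP1, RPS26 and RPS28. Over the longest coding isoforms, the 21 members with no peak had a median mRNA of 688 nt and 12 DRACH sites, and the 65 with a peak 1017 nt and 19 sites. The longest coding exon (170 and 172 nt) and the CDS (459 and 480 nt) had close medians in both sets. A longer exon offers more windows to the peak caller. The part of this in the presence of peaks was not tested, and the isoforms the cells used were not measured. The canonical 3′UTR of RPL37 in GENCODE has 7245 nt and that of RPL14 6358 nt, beside coding sequences of 291 and 645 nt, so a far 3′UTR peak there concerns only transcripts that extend so far.

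RPL37 carried 5, 5, 3, 6, 2 and 1 peaks in the 6 lists. Its 3′UTR locus at chr5:40827462-40828011 was present in all 6 lists, while chr5:40825387-40825786 was present in all but A5-KO PP. RPL14 carried 3, 5, 5, 7, 2 and 1 peaks in the same order of lists, and its locus at chr3:40467262-40467536 was missing in DE only. RPL27A carried 2, 4, 1, 4, 2 and 3 peaks. RPL7L1, a paralogue of RPL7, carried 5, 3, 4, 4, 6 and 4. Its 3′UTR loci at chr6:42886465-42886789 and chr6:42886915-42888064 were both in all 6 lists. RPL4 carried 3, 2, 1, 2, 3 and 4 peaks, with a shared 3′UTR locus at chr15:66498965-66499539. RPS14 (6 lists) and RPL13 (5 lists, not WT PP) had 1 peak a list, all in the 3′UTR. RPL5, which with RPL11 binds MDM2 when ribosome assembly is disturbed, differed in position, since its peak at chr1:92840463-92841924 had its midpoint in the CDS in all 4 lists of batch 1.

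RPS24 had the most peaks of all members, with 9, 9, 6, 5, 6 and 5, 40 in all. RPS24, mutated in Diamond-Blackfan anaemia, is known for alternative splicing of its last exons. Only 6 of its 40 peaks lay on the 534 nt canonical mRNA. Its loci in all 6 lists were chr10:78036483-78037421, where peaks lay on the CDS or on an annotated retained intron beside it, and chr10:78040122-78040321 on a retained intron, among others. RPL37A and RPS29 also had most or all peaks elsewhere. Each had a locus in all 6 lists on an exon of an alternative coding isoform, at chr2:216529243-216529492 and chr14:49577184-49577783, and 1 of 10 and 0 of 12 peaks on the canonical mRNA. Of the 174 peaks on other exons of member genes, 84 lay on alternative coding isoforms, 60 on retained introns, 20 on coding-gene transcripts with no defined CDS and 6 on transcripts marked for nonsense-mediated decay.

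Other members of all 6 lists varied in number. RPL31 had 2, 1, 2, 5, 4 and 2, and its 3′UTR peak of 175 exonic nt at chr2:101007178-101017943, which spans an intron, had the same coordinates in every list. RPL28 had 5, 2, 1, 3, 5 and 5. RPL13A had 1, 1, 1, 2, 3 and 1, and RPL22, which also has a paralogue (RPL22L1, without any peak), had 1, 2, 1, 1, 1 and 3. None of these genes showed a steady rise or fall along the stages.

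In the small subunit, RPS4X, the X-linked copy of RPS4, had 1, 2, 2, 2, 1 and 1 peaks, with a 3′UTR locus at chrX:72272516-72272715 in all 6 lists. RPS29 had 1, 1, 1, 1, 5 and 3, so most of its peaks were in the total RNA lists of batch 2. RPS27L, a paralogue induced by p53, had 3, 2, 1, 2, 2 and 2, of which 3 lay on its canonical mRNA, and RPS6 had 1, 1, 1, 3, 2 and 1. For RPS6 the canonical mRNA peaks, 6 in all, were confined to hILO, WT PP and A5-KO PP. RPL41, whose coding sequence of 75 nt makes a very short peptide, had 2, 2, 1, 2, 0 and 1.

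The peaks on neighbouring genes were concentrated at few places. RPL26 had 16 on KRBA2, RPL36 had 10 on HSD11B1L, RPL36A had 10 on HNRNPH2, which encodes a nuclear RNA-binding protein, and RPL17 had 6 on exons of the readthrough gene RPL17-C18orf32. Each of these 4 was present in all 6 lists, so counts of genes by assignment credit these ribosomal protein genes with m6A of another transcript. RPL13A had 1 such peak, on FLT3LG.

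Reads of ribosomal protein mRNAs can also be placed on the many processed copies of these genes, since 1 alignment was kept per read. Of 1600 annotated ribosomal protein pseudogenes, 55 to 86 per list carried a peak (3.44% to 5.38%), with 103 to 209 peaks, of which 28 to 63 named no other gene. Whether such peaks hold reads from the parent mRNA was not tested.

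Along the differentiation series the peaks of ribosomal protein genes were fewest in PP and most numerous in hILO. The 4 lists of batch 1 held 95, 79, 55 and 104, of which 43, 42, 24 and 65 lay on canonical mRNAs. Of all peaks of these lists (36659, 32680, 29083 and 31519), they made up 0.259%, 0.242%, 0.189% and 0.330%, so PP was lowest and hILO highest also as a share. From PP to hILO, 12 members had a canonical mRNA peak in both, 2 (RPL23 and RPS24) in PP only (5.00%, beside 9.78% of all protein-coding genes) and 26 in hILO only. Of the 40 members with such a peak in either list, 65.0% thus had it in hILO only, beside 20.4% of 11081 protein-coding genes. The members in hILO only included RPL11, RPL15, RPL18 and RPL24, which had no peak in any other list, and also RPS3, RPS6, RPS19, RPS23 and RPS27A. RPS6 is the substrate of the S6 kinases, RPS3 lies where the mRNA enters the ribosome, and RPS23 is part of the decoding centre. The 33 hILO peaks of members without a canonical mRNA peak in PP were divided between CDS (16) and 3′UTR (17), whereas the 24 canonical mRNA peaks of PP were in the CDS in 2 cases and in the 3′UTR in 22. From hPSC to DE, 19 of 35 members had one in both (54.3%, beside 76.3% of all protein-coding genes with one in either), 8 in hPSC only (22.9%, beside 14.5%) and 8 in DE only (22.9%, beside 9.25%). From DE to PP, 14 had one in both, 13 in DE only (48.1%, beside 20.0%) and 0 in PP only (beside 10.5%).

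Depth also differed between the lists. The median input count per peak over all peaks of batch 1 was 66, 103, 87 and 302, and the input reads in peaks summed to 7970658, 12602604, 6987612 and 28463998. The IP reads in peaks summed to 79822815, 30723097, 30944774 and 77537744, so the lists with the most member peaks, hPSC and hILO, also had the most IP reads. On the input side hPSC had the lowest median and a sum near that of PP. The sums also move with the number of peaks called, and the part of depth in the peak numbers was not tested. The median input counts of batch 2 were 80 (WT PP) and 33 (A5-KO PP).

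A peak was taken as inherited when peaks of the previous stage covered over 50% of its exonic bases. Of the ribosomal protein peaks, 52 of 79 were inherited in DE (65.8%, Wilson 95% interval 54.8% to 75.3%, beside 64.7% of all peaks), 35 of 55 in PP (63.6%, 50.4% to 75.1%, beside 57.0%) and 29 of 104 in hILO (27.9%, 20.2% to 37.2%, beside 45.6%). The interval of hILO lay below the share of all peaks, and those of DE and PP included it. These intervals treat peaks as independent, although several can come from the same gene. On canonical mRNAs 14 of 65 hILO peaks were inherited (21.5%). Each stage share uses a different previous list, and PP was the shortest list of the series.

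Overlapping peaks of 1 gene were joined into 177 loci, of which 81 were in 1 list (45.8%) and 17 in all 6 (9.60%). Of the loci of all protein-coding genes, joined in the same way, 50.7% were in 1 list and 11.2% in all 6, so the recurrence was near the background. The 15 members with a peak in 1 list had it in hILO in 7 cases, in hPSC in 5 (RPL35, RPS20, RPS21, RPSA and the muscle paralogue RPL3L), in WT PP in 2 (RPL9 and RPS15A) and in PP in 1 (RPS25). Of the 2096 protein-coding genes with a peak in 1 list, 11.0% had it in hILO, 11.6% in hPSC and 59.8% in A5-KO PP, where no member had its single list.

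The read counts and enrichments need a limit before they are used. In each list the rows were put in the order of their peak numbers, and the ranks of input counts and exonic lengths were correlated in windows of rows with the counts moved against the coordinates. Where counts and coordinates belong together, the correlation should be highest with no move. This held for 13153 rows of hPSC (35.9%), 10823 of DE (33.1%), 3004 of PP (10.3%), 2461 of hILO (7.81%), 2706 of WT PP (6.25%) and 2157 of A5-KO PP (3.91%), called lined up here. Elsewhere the best move drifted, for example to 8 rows in part of the hPSC list. As a second check, peaks with identical coordinates in hPSC and DE had input counts with a rank correlation of 0.86 among 824 pairs lined up in both and 0.25 among the 1946 others. Of the exonic lengths, 95.1% to 96.4% were multiples of the 25 nt step of the caller. The counts, enrichments and p-values of the other rows may thus belong to another peak, and values of single peaks are given below only from lined-up rows. These hold 135 of the 471 ribosomal protein peaks (28.7%), 57, 43, 10, 15, 5 and 5 in the 6 lists.

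**Figure D3:**
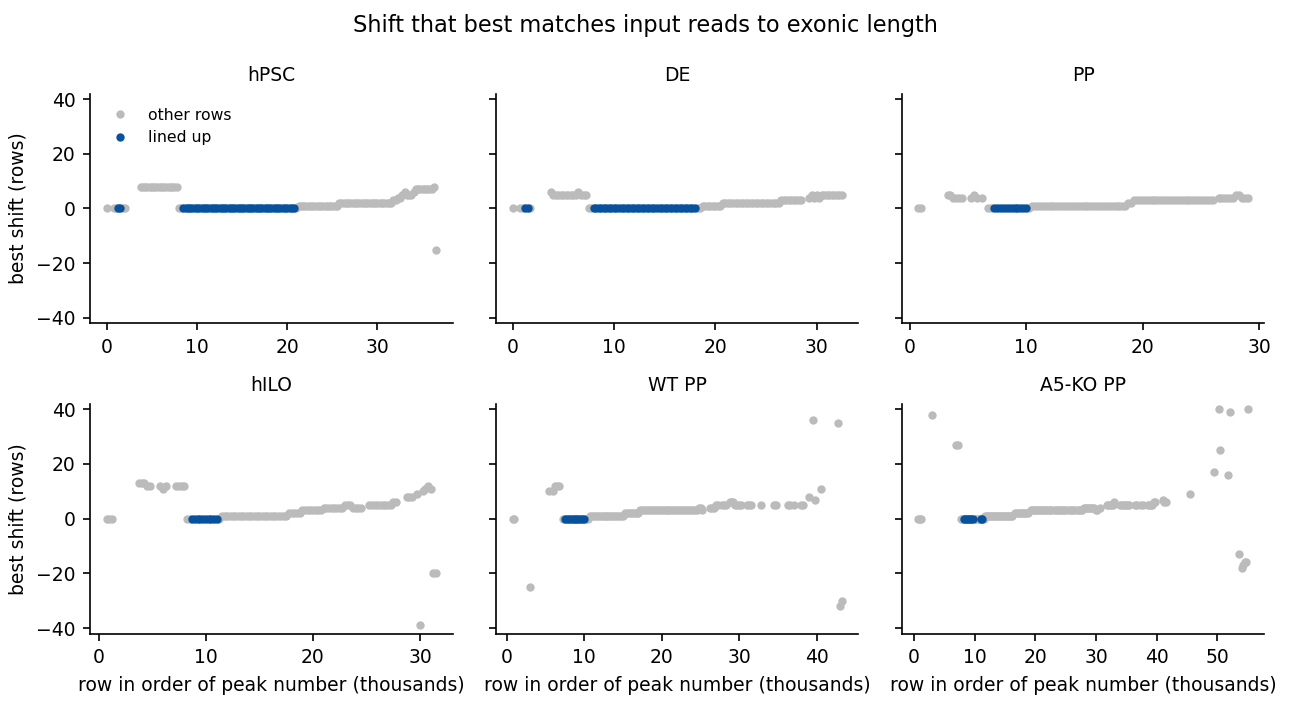
The number of rows by which counts had to be moved to match exonic lengths best (vertical axis), against the row in the order of peak numbers (horizontal axis, in units of 1000 rows), in 1 panel per list with a point at every 250 rows where the correlation was above 0.15. Blue points are lined up, and grey points, best matched at other moves or close to the end of a matching stretch, make up most of each list.

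Over all deposited rows, the median log2 enrichment of ribosomal protein peaks was 1.72, 1.73, 1.64, 1.60, 3.69 and 4.06, beside 1.74, 1.72, 1.64, 1.53, 3.65 and 4.31 for all peaks. A log2 enrichment of at least 2, that is an IP/input of at least 4, was listed for 28, 26, 19, 26, 66 and 51 of them, beside 32.4%, 31.8%, 31.0%, 22.6%, 78.5% and 80.5% of all peaks. Among lined-up rows it was 1.73, 1.68, 1.43, 1.40, 3.23 and 3.24, beside 1.70, 1.66, 1.47, 1.42, 3.21 and 3.68. The same level was reached by 20 of 57 lined-up hPSC peaks (35.1%, beside 29.6% of all lined-up peaks) and 11 of 43 lined-up DE peaks (25.6%, beside 25.8%). It was reached by 1 of 10 PP peaks (beside 15.3%) and 2 of 15 hILO peaks (beside 16.0%). All 5 peaks of WT PP (beside 79.6%) and all 5 of A5-KO PP (beside 80.2%) reached it. These medians pool locations that differed. The lined-up peaks on canonical mRNAs had medians of 1.72 (n = 23), 1.52 (n = 17), 1.24 (n = 2), 0.98 (n = 7), 3.23 (n = 3) and 3.20 (n = 3), which were below the medians of all lined-up peaks in DE, PP, hILO and A5-KO PP. Those on exons of a neighbouring gene had 2.36 (n = 10), 2.22 (n = 9), 1.65 (n = 4) and 1.75 (n = 5) in the lists of batch 1. The higher level of the batch 2 lists applies to all peaks.

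The lined-up peaks allowed some genes to be followed across stages. The RPL5 peak described above had 38950 IP and 4445 input reads in hPSC, with a log2 enrichment of 1.79 ± 0.02 (counting error). In DE it had 18339 and 10117 reads and 1.89 ± 0.02, in PP 15402 and 6609 reads and 1.46 ± 0.02, and in hILO 23918 and 9865 reads and 1.76 ± 0.02. PP was lowest, but the lists were normalized separately and the spread between libraries is unknown.

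Most lined-up pairs were between hPSC and DE. The RPL13A 3′UTR peak had 66959 IP and 7062 input reads in hPSC and 40248 and 15224 in DE, with log2 enrichments of 1.73 and 1.73. The RPL37 3′UTR locus of all 6 lists had 3600 and 309 reads in hPSC and 526 and 176 in DE, with 2.15 ± 0.09 and 2.14 ± 0.13. The RPL37 locus at chr5:40825437-40825786 had 3006 and 246 reads and 2.16 ± 0.10 in hPSC, and 935 and 387 reads and 1.65 ± 0.09 in DE. The 2 RPL37 loci were thus alike in hPSC and apart in DE by more than their counting error.

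In all, 31 lined-up hPSC peaks assigned to 12 members had a lined-up DE counterpart over more than 50% of their exonic length. The value was lower in DE for 23 of them and higher for 8 (25.8%, beside 38.3% of 6542 such pairs of all peaks). The median difference, DE minus hPSC, was -0.088, beside -0.085 for all peaks. The pairs on the neighbouring genes KRBA2, HSD11B1L and HNRNPH2 are among the 23. Some DE peaks were the counterpart of more than 1 hPSC peak, so the pairs are not independent. RPL7L1 at chr6:42886565-42886789 had 1708 IP and 140 input reads and 2.17 ± 0.13 in hPSC, and its DE peak, which starts 1 caller step earlier, had 509 and 205 reads and 1.67 ± 0.12. Further along the same 3′UTR, at chr6:42887790-42888039, RPL7L1 had 1.36 ± 0.07 in hPSC and 1.43 ± 0.06 in DE, within their counting errors. RPS24 on its CDS (its DE peak also starts 1 step apart) had 44936 and 4813 reads and 1.85 ± 0.02 in hPSC, and 23724 and 12458 reads and 1.41 ± 0.02 in DE. RPL36, at the same 3′UTR coordinates, had a log2 enrichment of 1.66 ± 0.02 in hPSC, 1.06 ± 0.02 in DE and 1.39 ± 0.02 in hILO. RPL26, at the same coordinates in both lists and partly off the canonical mRNA, had 1.60 ± 0.02 in hPSC and 1.25 ± 0.01 in DE. The RPL5 retained intron peak at chr1:92837650-92837699 had 1.81 ± 0.05 in hPSC and its DE counterpart 1.43 ± 0.03, while the RPL5 peak above was higher in DE. RPS6 was also higher in DE, with 23211 IP and 3740 input reads and 1.24 ± 0.03 in hPSC and 10324 and 7807 reads and 1.35 ± 0.02 in DE. Within RPS24, lined-up peaks off the canonical mRNA lay both below and above the CDS peak in hPSC, and all 8 lay above it in DE. The retained intron peak at chr10:78037322-78037396 went the other way, with 4602 input reads and 1.82 ± 0.02 in hPSC and 11973 input reads and 2.08 ± 0.02 in DE. The retained intron peak at chr10:78040522-78049004 had 64190 IP and 4651 input reads and 2.38 ± 0.02 in hPSC, and its DE counterpart had 37890 and 14147 reads and 1.80 ± 0.01. The retained intron peak at chr10:78040122-78040321 had 12725 and 1179 reads and 2.14 ± 0.04 in hPSC, beside 4813 input reads on the CDS peak. RPL36A, a retained intron case followed over 4 stages, had 2.13 ± 0.28, 2.68 ± 0.28, 2.09 ± 0.17 and 2.58 ± 0.16 from 28 to 98 input reads, and the ranges of 2 counting errors around these values overlapped. The direction between hPSC and DE therefore differed between genes and, in RPL5 and RPS24, between peaks of 1 gene, and without values per library none of these differences was tested.

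The highest lined-up value of batch 1 with at least 50 input reads was not on a ribosomal protein exon. It was the RPL26 assignment on KRBA2 at chr17:8368937-8369311, with 1163 IP and 59 input reads and 2.80 ± 0.19 in hPSC, and 554 and 106 reads and 2.73 ± 0.15 in DE. Of the 3 highest peaks per list with at least 50 input reads, the hPSC peak alone had counts that lined up. The HNRNPH2 peak assigned to RPL36A had 2.36 ± 0.04, 1.99 ± 0.04, 1.74 ± 0.05 and 1.75 ± 0.03 along the 4 stages, with 1138 to 2815 input reads.

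Loss of ALKBH5 was compared by WT PP and A5-KO PP. ALKBH5 removes m6A, and the comparison asks whether the ribosomal protein peaks of progenitors were more numerous or stronger without it. The WT PP list had 79 of their peaks and the A5-KO PP list 59, although the A5-KO PP list was the longer one (43312 and 55219 peaks in all). A peak was present in both on 27 members, in WT PP only on 8 (RPL3, RPL5, RPL9, RPL26L1, RPL29, RPS9, RPS15A and RPS16) and in A5-KO PP only on 5 (RPL7A, RPL13, RPL39L, RPL41 and RPS27A). Of the 40 members in either, 20.0% were thus in WT PP only and 12.5% in A5-KO PP only, beside 6.85% and 16.1% of all protein-coding genes. On canonical mRNAs 16 members were in both, 9 in WT PP only (30.0%, beside 8.79%) and 5 in A5-KO PP only (16.7%, beside 17.0%). The lower input counts of the A5-KO PP list move with the smaller number, and their part was not tested.

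Of the WT PP peaks, 36 on 22 genes had a counterpart in A5-KO PP over more than 50% of their exonic length. Over all deposited rows the median difference in log2 enrichment, A5-KO PP minus WT PP, was -0.13 (quartiles -0.86 and 1.95), with 13 higher by at least 1 (36.1%, beside 38.7% of all shared peaks) and 7 lower by at least 1 (19.4%, beside 28.2%). These shares were near the background. Where both lists gave 50 input reads or more, only the RPL37A pair of peaks, at chr2:216529243-216529492 and chr2:216579001-216579175, differed by 1 or more, and their counts did not line up, so no value is given.

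RPL28, a large-subunit protein, was the single member with pairs lined up in both lists. Its peak on an exon off the canonical mRNA had 945 IP and 230 input reads in WT PP and 585 and 207 in A5-KO PP, with log2 enrichments of 3.70 and 3.70 and a difference of -0.004 (counting error 0.16). Its nearer 3′UTR peak had 1390 and 622 reads in WT PP and 620 and 295 in A5-KO PP, with 3.02 and 3.24 and a difference of 0.23 (0.12). Its farther 3′UTR peak had 476 and 181 reads in WT PP and 325 and 166 in A5-KO PP, with 3.48 and 3.20 and a difference of -0.28 (0.19). None of the 3 reached a difference of 1, and each was within 2 counting errors of 0. Among all 1025 lined-up shared peaks, 22.5% gained at least 1 in A5-KO PP and 11.5% lost as much.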

How the data were processed

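The authors used fastp for trimming, HISAT2 for alignment (GRCh38, with a single position retained for a read) and exomePeak2 for peaks, with a stated IP/input of at least 1.5 and p below 1e-05. Every deposited row met the former, but 5.72% to 45.9% of the rows of a list (3.85% to 38.2% of member rows) were not below the latter, and they were kept. HOMER is also named in the submitters' processing notes. The deposited lists give per peak IP and input read counts pooled over libraries, a log2 enrichment by the caller, and a p-value with its adjusted value. The way of pooling, by sum or by mean, is not given in the sources used here.

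Columns were used as deposited. Peaks were reduced to GENCODE 44 exons on the strand of the gene, placed by midpoint and compared by exonic overlap (more than 50%). The longest coding isoform (longest CDS) gave the planned CDS share and the lengths, and the canonical mRNA, chosen after seeing the data, the positions. Row alignment used windows of 300 rows on each side, moves up to 40 rows and a correlation above 0.25, and was tested on simulated data. Counting errors took 0.5 added to each count. Intervals are Wilson 95%, and they cover counting error only, as PCR copies are not independent molecules. Library totals were not used here. Named genes were those in 5 or 6 lists, in 1 list or in none, those with the most peaks, the 3 highest peaks per list, pairs differing by at least 1 and a list of well-known members. Other members named at a comparison, such as those without a canonical mRNA peak, were chosen after their values were seen. A few members and 1 site are not reported here by name, though counts include them. The members and lists were chosen with earlier results of these data known. Python 3.11.15, numpy 2.4.6, pandas 2.3.3, scipy 1.17.1, pysam 0.24.0 and matplotlib 3.10.9 were used.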

Additional observations from a re-analysis of the deposited data

How the results depend on the processing

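Of 118 values under alternative settings, 72 kept within the range set for them (a factor of 1.5 for counts, the 95% interval for shares and medians) and 46 moved beyond it. Members with a peak fell from 46, 36, 34, 50, 35 and 32 (hPSC, DE, PP, hILO, WT PP, A5-KO PP) to 26, 20, 18, 31, 19 and 17 with assignments to 1 gene only, and peaks to 54, 44, 34, 62, 43 and 29. All protein-coding genes fell too, to 47.3%, 44.6%, 40.4%, 45.0%, 49.7% and 55.8%, beside 30.2%, 23.3%, 20.9%, 36.0%, 22.1% and 19.8% of members, and the interval of hILO (26.7% to 46.6%) included the background. With p below 1e-10, members fell to 25 (hPSC), 14 (PP), 18 (WT PP) and 13 (A5-KO PP), and peaks to 44, 49 and 21 along the first 3 stages, 33 for WT PP and 21 for A5-KO PP. With p below 1e-05, added after seeing the data, PP fell to 20 members and 34 peaks, and the other lists stayed within the range. A minimum of 50 input reads left 17 members in the list of A5-KO PP. Canonical mRNA peaks only, added after seeing the data, gave 27 in hPSC, 14 in PP and 21 in A5-KO PP. All thresholds on counts, p or enrichment share the limit on row alignment.

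The CDS share of placed peaks was 32.7%, 37.3%, 21.4%, 42.3%, 36.6% and 28.1%, and on the longest transcript 13.5%, 20.6%, 0%, 20.0%, 19.4% and 13.0%. Counting any overlap with the CDS raised hILO to 57.7%. GGAC in place of DRACH gave 49.5%, 48.1%, 50.9%, 51.9%, 48.1% and 57.6%. The inherited share became 47.3% in PP with reciprocal overlap (all peaks 41.5%) and 39.4% in hILO with any overlap (all peaks 56.2%). Median enrichment among lined-up rows, a setting added after seeing the data, was 1.40 for hILO, 3.23 for WT PP, and 3.24 for A5-KO PP, where log2 ratios of counts gave 5.02. The cause was not tested. The median difference of A5-KO PP minus WT PP stayed within its interval in all 4 alternatives, but changed sign to 0.51 with log2 ratios of counts. No paired analysis was possible because each list pools its libraries, and for the same reason no library could be left out. The A5-KO PP list, the longest, had the lowest median input (33 reads per peak), and the part of depth in its values was not tested.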
